A study of Mus musculus with 2 samples.

Results

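The 9 genes described here encode transcription factors that set limb type, limb pattern and the fate of limb muscle precursors in the embryo. They were listed by name and not by a cut on any measured value, but with earlier results of these data known. Pitx1 and Tbx4 stand for hindlimb identity, Tbx5 for forelimb identity, and Tbx3 and Lmx1b for limb patterning. Lbx1, Pitx3, Meox1 and Meox2 stand for muscle precursors. The listed genes are 9 of the 55536 Ensembl genes and of the 21951 protein-coding genes in the gene tables, and all 9 were found there. The data were total RNA-seq of the gastrocnemius, the large calf muscle, of 4-day-old B6CASTF1/J females, which are first-generation hybrids of C57BL/6J and CAST/EiJ. There was 1 group of 2 libraries, each from 300 ng of RNA with ERCC spike-in transcripts added, and replicate 1 held 30961087 and replicate 2 36246031 expected counts. The labels number the animals 3 and 4 and give both the same donor record, so whether they share a litter is not known and part of the spread between libraries may be technical. No forelimb muscle and no other age or condition was analysed here, so the members were compared with each other, with their gene families and between the libraries. Markers of the labelled tissue were present: 7 of 7 skeletal muscle genes were detected, led by skeletal actin Acta1 at 12814 ± 1627 TPM (a measure of transcript abundance scaled for length and depth; values with ± are mean ± SD, n = 2 libraries).

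As background, Pitx1 acts in hindlimb but not forelimb mesenchyme and switches on Tbx4, while Tbx5 starts and marks the forelimb, so the contrast between Tbx4 and Tbx5 is a textbook sign of limb type. Lmx1b specifies the dorsal side of the limb, downstream of the ectodermal signal Wnt7a. Muscle cells of the limb come from the somites, where Meox1 and Meox2 act, and the migrating precursors express Pax3 and Lbx1, whereas Pitx1, Tbx3, Tbx4 and Lmx1b are known mainly from the limb mesenchyme, which forms connective tissue.

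The coding stretches of 60 nt in which paralogs among the members are most alike are shown first, because reads have to tell such copies apart. A read length of 100 nt was inferred from the effective lengths in the gene tables (length minus 99 nt). Capitals mark the positions at which the members of a pair differ. Each stretch was joined from neighbouring exons of the GENCODE M21 transcript and is given by its outer coordinates in mm10. The Tbx4 stretch lies at chr11:85911227-85911962 and the Tbx5 stretch at chr5:119845085-119853555, both on the plus strand, and they differ at 6 positions.
Tbx4: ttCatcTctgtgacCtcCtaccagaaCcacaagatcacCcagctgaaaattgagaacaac
Tbx5: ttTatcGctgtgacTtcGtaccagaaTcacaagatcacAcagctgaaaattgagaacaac
The Pitx1 stretch at chr13:55826594-55828481 and the Pitx3 stretch at chr19:46136588-46137024, both on the minus strand, differ at 5 positions.
Pitx1: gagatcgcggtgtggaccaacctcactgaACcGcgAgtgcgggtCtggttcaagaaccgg
Pitx3: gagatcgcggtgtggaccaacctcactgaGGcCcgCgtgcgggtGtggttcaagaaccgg

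Over the whole aligned coding sequence, Tbx4 and Tbx5 were 70.1% identical, Pitx1 and Pitx3 73.9%, and Meox1 and Meox2 72.2%. The longest run that the leading transcripts of a pair shared was 23 nt for Tbx4 and Tbx5, 29 nt for Pitx1 and Pitx3, and 12 nt for Meox1 and Meox2. No window of 100 nt of the leading transcript of Tbx4, Tbx5, Lmx1b, Lbx1, Pitx3, Meox1 or Meox2 recurred exactly, on either strand, in a transcript of another gene. For Pitx1, 2.81% of such windows recurred in Gm47071, and for Tbx3 0.363% recurred in Tbx3os1, genes that overlap them on the opposite strand. Whether counting used strand is unstated, so reads in those overlaps are uncertain.

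The muscle precursor genes were the most abundant members and the hindlimb genes were present at about 2 TPM, while Tbx5 was close to 0. Of the 9 members, 7 reached the detection level of 1 TPM in both libraries, as did 24% of all Ensembl genes and 54.9% of protein-coding genes. The levels ran in the order Meox2, Pitx3, Lbx1, Meox1, Tbx3, Tbx4, Pitx1, Lmx1b and Tbx5. By the values of the 2 libraries, neighbours in this order did not overlap except Tbx4 and Pitx1, which changed places between the libraries. The 95% Poisson intervals within replicate 1 of Lbx1 (7.08 to 8.42 TPM), Meox1 (6.15 to 7.49 TPM) and Tbx3 (6.20 to 7.23 TPM) all overlapped one another. By these intervals the 3 genes could not be told apart. The order of the means was the same in the other deposited quantification, where mean levels were higher for all 9, from 1.44 times for Pitx3 to 3.47 times for Tbx5. There Pitx3 (16.0 and 16.9 TPM in replicates 1 and 2) and Lbx1 (13.4 and 16.3 TPM) overlapped, as did Tbx4 and Pitx1. In these bulk samples, fewer cells of a type and less RNA per cell cannot be told apart.

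**Figure D1:**
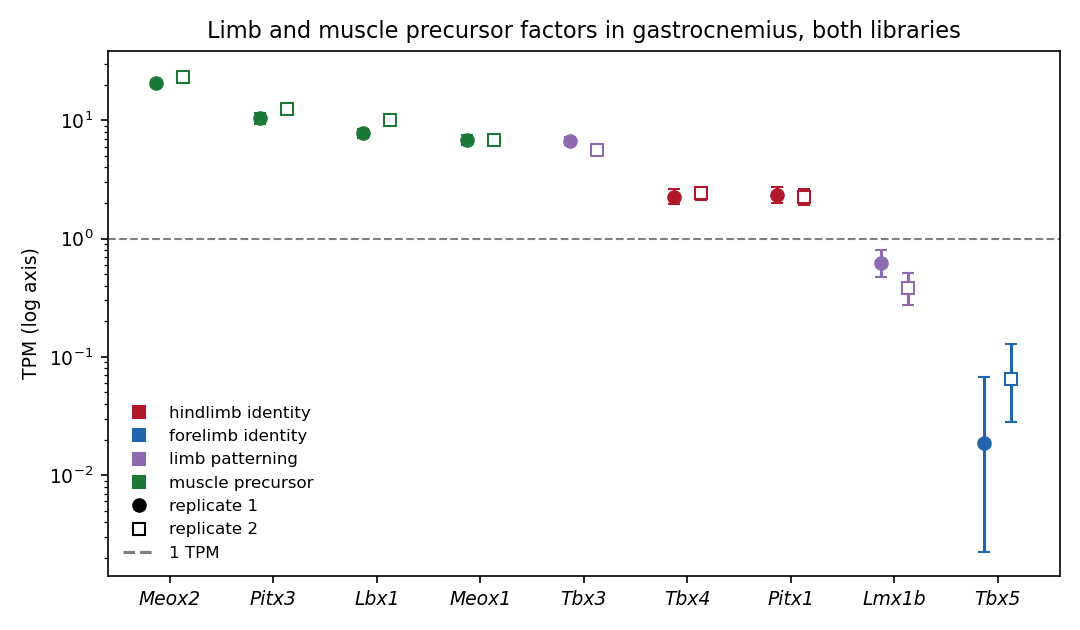
Level of each of the 9 factors in TPM (log axis) in replicate 1 (circles) and replicate 2 (squares) of 4-day gastrocnemius, coloured by role, with bars for the 95% Poisson interval of the counts. Meox2 leads at 21.9 TPM, Tbx4 and Pitx1 sit together just above the dashed line at 1 TPM, and Tbx5 lies lowest with wide intervals.

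Among the hindlimb genes, Pitx1 had 2.34 TPM in replicate 1 and 2.24 TPM in replicate 2, from 154 and 160 expected counts. Tbx4, which drives hindlimb outgrowth and later acts in muscle connective tissue, had 2.26 and 2.41 TPM in replicates 1 and 2, from 190 and 228 counts. The libraries thus gave nearly the same level for either gene. Both were low among genes of this tissue: Pitx1 stood above 10.2% and Tbx4 above 10.5% of the 12057 detected protein-coding genes.

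The forelimb gene Tbx5 had 2 expected counts in replicate 1 and 8 in replicate 2, or 0.0186 and 0.0655 TPM. The 95% Poisson interval of its level was 0.00225 to 0.0672 TPM in replicate 1 and 0.0283 to 0.129 TPM in replicate 2, so the libraries could not be told apart at this depth. Both hindlimb genes exceeded Tbx5 in both libraries with no overlap. The TPM of Pitx1 was 125.8 times that of Tbx5 in replicate 1 (95% counting interval 34.2 to 1048) and 34.1 times in replicate 2 (16.9 to 80.4). The TPM of Tbx4 was 121.6 times that of Tbx5 in replicate 1 (33.2 to 1011) and 36.7 times in replicate 2 (18.3 to 86.1). The exact two-sided permutation p was 0.333 for either gene against Tbx5, the smallest that 2 values against 2 can give. This test treated the values as unpaired, whereas the ratios above were taken within each library.

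The size of this ratio rested on a handful of Tbx5 counts. In the other quantification Tbx5 had 10.3 and 11.2 estimated counts, and the ratio of mean TPM was 25.6 for Pitx1 and 26.9 for Tbx4, against 54.4 and 55.5 from the gene tables. Of the counts that Tbx4 and Tbx5 took together, Tbx5 held 1.04% in replicate 1 (2 of 192, exact Clopper-Pearson 95% interval 0.126% to 3.71%) and 3.39% in replicate 2 (8 of 236, 1.47% to 6.57%). Hox genes of limb level gave a less one-sided picture. The hindlimb gene Hoxc10 stood at 17.1 ± 1.17 TPM, with Hoxc11 at 4.15 ± 0.16 TPM and Hoxc9 at 3.28 ± 0.0406 TPM, against 3.19 ± 0.0517 TPM for Hoxc4 and 1.87 ± 0.378 TPM for Hoxc5, which mark the forelimb level. All 3 hindlimb and both forelimb Hoxc genes were detected. The annotated span of Hoxc5 overlaps Hoxc10 and contains Hoxc9 on the same strand, so the split of reads among these genes is uncertain.

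Tbx5 is also a heart gene, so cardiac markers were read beside it. None of the 4 reached the detection level in either quantification. In the gene tables Nkx2-5, Nppa and Tbx20 had 0 counts in both libraries, and Gata4 had 1 count in replicate 1 and 3 in replicate 2. The other quantification gave Tbx20 47.4 and 27.0 estimated counts in replicates 1 and 2 (0.286 and 0.139 TPM), Gata4 3 counts in each library, and Nkx2-5 and Nppa 0. A count of 0 leaves room for up to 3 counts per library (one-sided) by counting error alone, with PCR copies of a molecule counted as separate reads, and as Tbx20 shows it does not cover how reads were assigned.

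Of the patterning genes, Tbx3, a repressor that acts at the anterior and posterior limb margins, was detected and Lmx1b was not. Tbx3 had 6.70 TPM in replicate 1 and 5.59 TPM in replicate 2 (from 660 and 645 counts), above 33.9% of detected protein-coding genes. Lmx1b had 0.623 and 0.378 TPM in replicates 1 and 2 (58 and 43 counts), well above single reads though under the detection level. Wnt7a, its upstream signal in limb ectoderm, had 0 counts in both libraries.

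The muscle precursor genes spanned 6.81 to 21.9 TPM. Meox2, a somite homeobox gene that mouse limb muscles need to form fully, led with 20.6 TPM in replicate 1 and 23.2 TPM in replicate 2 (from 1302 and 1664 counts), above 75.6% of detected protein-coding genes. Its paralog Meox1 had 6.80 and 6.83 TPM (405 and 462 counts), so Meox2 took 76.2% ± 1.46 of the TPM of the pair. Pitx3, best known from the lens and dopamine neurons and also expressed in mouse skeletal muscle, had 10.4 and 12.4 TPM (337 and 443 counts). Lbx1, which marks and guides migrating limb muscle precursors, had 7.73 and 10.02 TPM (516 and 759 counts). Lbx1, Pitx3 and Meox2 were higher in replicate 2, and Meox1 was level.

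Compared per length, Pitx3 stood above its paralog Pitx1 in both libraries. Lbx1 took 98.4% ± 1.26 of the TPM of its pair, with Lbx2 at 4 counts in replicate 1 and 1 count in replicate 2.

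The limb T-box genes were minor members of their family in this muscle. Of 17 T-box genes 7 were detected, beside 54.9% of all protein-coding genes. Tbx15, a mesenchymal factor also linked to fast glycolytic fibres in mice, led with 41.96 ± 1.08 TPM, or 47.0% ± 1.28 of the family, followed by Mga, a partner of Max, with 24.4 ± 3.16 TPM. Tbx2, the closest paralog of Tbx3, had 6.91 ± 0.449 TPM, and then came Tbx3, Tbx1 with 3.52 ± 0.932 TPM, Tbx18 with 3.00 ± 0.585 TPM, and Tbx4. Tbx3 took 6.91% ± 1.25, Tbx4 2.61% ± 0.0213 and Tbx5 0.0462% ± 0.0347 of the family TPM. The 10 T-box genes under the detection level, Tbx5 among them, reached at most 0.449 TPM.

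Of the 12 LIM homeodomain genes only Lhx6, known from forebrain interneurons, was detected, at 2.46 ± 0.88 TPM, beside 54.9% of all protein-coding genes. Lmx1b took 9.32% ± 3.32 of this family, and its paralog Lmx1a was higher at 0.807 ± 0.181 TPM. The 11 genes under the detection level, which include both, ran down to 4 genes with 0 counts in both libraries.

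**Figure D2:**
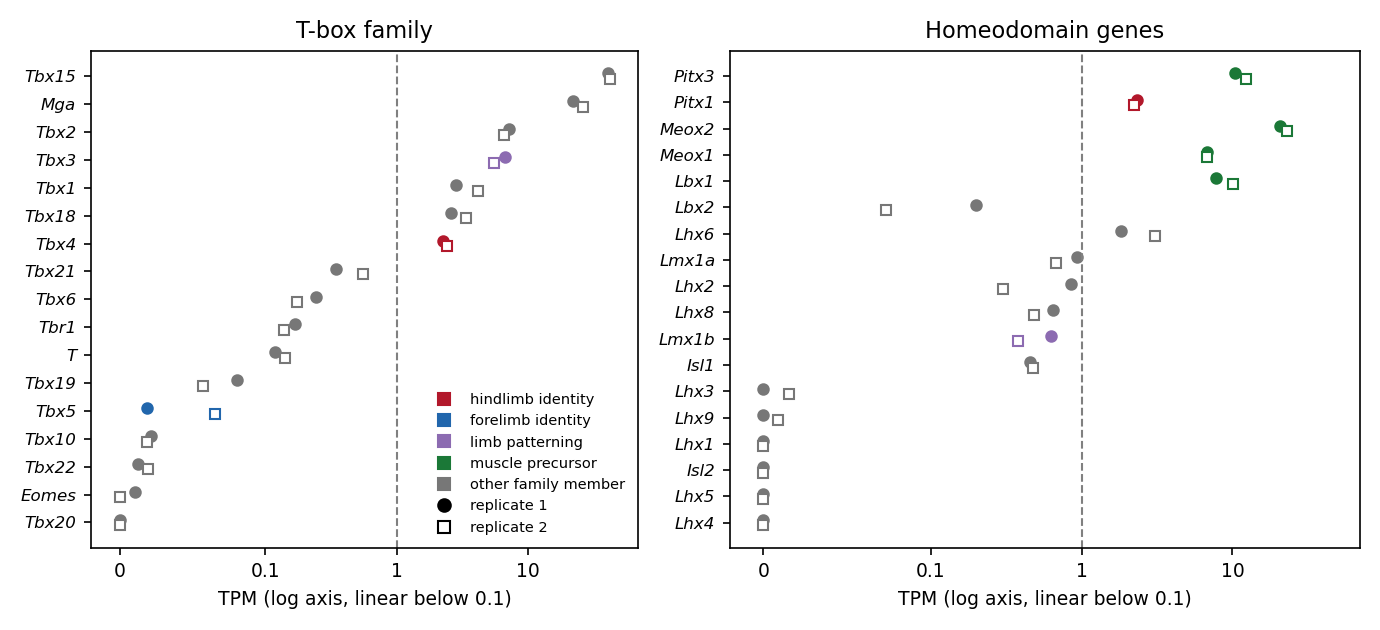
Level in TPM of every T-box gene (left) and Pitx1, Pitx3 and every Meox, Lbx and LIM homeodomain gene (right) in replicate 1 (circles) and replicate 2 (squares), on an axis that is logarithmic above 0.1 TPM and linear below. Tbx15 and Mga stand above the limb T-box genes, Meox2 and Lbx1 lead their families, Pitx3 lies above Pitx1, and Lmx1b sits in the low LIM homeodomain group under the dashed line at 1 TPM.

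Of 24 other genes of limb bud outgrowth and patterning 12 were detected. This is near the 54.9% of all protein-coding genes and does not set the list apart. Among those detected were the mesenchymal homeobox gene Prrx1 (35.1 ± 0.917 TPM), the LIM cofactor gene Ldb1 (29.4 ± 0.479 TPM) and Gli3, a transducer of hedgehog signalling (7.82 ± 0.733 TPM). Among the limb bud signals of the list, Fgf10, which the mesenchyme makes, was detected at 1.73 TPM in replicate 1 and 1.63 TPM in replicate 2 (from 195 and 208 counts). Fgf8, Shh and the antagonist gene Grem1 were under the detection level: Fgf8 had 0 counts in replicate 1 and 1 in replicate 2, Shh had 0 and 2, and Grem1 had 26 and 23, or 0.204 ± 0.0357 TPM. The others under the detection level, besides Wnt7a, were Isl1, Hand2, Sall1, Sall4, Msx2, Alx4, Irx3 and Irx5, with Hand2 highest at 0.763 ± 0.289 TPM. The median of the list was 1.19 TPM.

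Genes of muscle precursor migration and specification were detected in 13 of 14 cases, beside 54.9% of all protein-coding genes, at a median of 7.72 TPM. They were led by Myog (76.6 ± 7.23 TPM), which drives myoblast differentiation, the chemokine gene Cxcl12 (37.9 ± 2.31 TPM) and Myod1 (21.8 ± 4.01 TPM). Pax3, which precedes Lbx1 in the migrating embryonic precursors, was the exception with 5 counts in each library, or 0.0501 ± 0.00381 TPM. Lbx1 at 8.87 ± 1.62 TPM thus stood apart from Pax3 in both libraries. All 7 muscle connective tissue genes were detected, led by Col3a1 (2085 ± 0.0122 TPM), Tcf4 (80.6 ± 7.25 TPM), Prrx1 and Pdgfra (29.7 ± 2.49 TPM), so Tbx4 and Pitx1 lay well under the lowest of them, Osr1 (7.03 ± 0.281 TPM).

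Between the libraries the measured members, like most genes, stayed within 2-fold. Of the 8 members that averaged at least 10 counts, 0 were past 2-fold. Of the 17598 genes measured 3.75% were (660 genes), and at a mean of at least 100 counts that share was 0.71%. A count of 0 among 8 is near these shares and does not set the members apart. With 1 library against 1 there is no test, so each log2 ratio of replicate 2 over replicate 1 is given with its 95% counting interval. Lbx1 was at 0.38 (0.22 to 0.54), Pitx3 at 0.22 (0.01 to 0.43) and Meox2 at 0.18 (0.07 to 0.28), all positive under every scaling tried. Scaled by spike-ins, Lbx1 was at 0.24 (0.08 to 0.40), but Pitx3 at 0.08 (-0.13 to 0.29) and Meox2 at 0.04 (-0.07 to 0.14) had intervals that held 0, as did Pitx3 by library size (-0.04 to 0.38). Tbx3 was at -0.21 (-0.37 to -0.05) and Lmx1b at -0.59 (-1.21 to -0.01), both negative under every scaling tried. The intervals of Pitx1 (-0.12, from -0.45 to 0.21), Tbx4 (0.09, from -0.20 to 0.37) and Meox1 (0.01, from -0.18 to 0.21) held 0, and the signs of Tbx4 and Meox1 changed when libraries were scaled by spike-ins, a choice that shifted the median gene by -0.14. Meox1 was also negative when scaled by library size (-0.04) and, at -0.01, when genes averaging fewer than 100 counts were left out. The median of the 8 members was 0.05, beside 0.00 for all genes measured. Tbx5, at a mean under 10 counts, was not among them.

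Tendon, cartilage and bone, and keratinocyte markers differed more between the libraries by list median than any of the 8 measured members, while those of fibroblasts, satellite cells and endothelium did not. All 5 tendon markers were lower in replicate 2 (summed level 125 TPM, against 248 TPM in replicate 1; median log2 ratio -1.04). The 6 cartilage and bone markers summed to 11.6 TPM in replicate 2, against 32.4 TPM in replicate 1, and Ibsp and Col10a1 had 0 counts in replicate 2 against 471 and 70 in replicate 1. The median of that list was -1.86. Setting Ibsp and Col10a1 to 3 counts in replicate 2 could not change it, because they stay the lowest of the list. All 4 keratinocyte markers (5.55 TPM in replicate 2, against 3.04 TPM in replicate 1) and all 4 Schwann cell markers (273 and 189 TPM) were higher in replicate 2, as were the 7 skeletal muscle markers (median 0.25, or 0.11 with spike-in scaling). The keratinocyte median was 1.75, but 3 of those 4 genes were under the detection level. These 3 had at most 20 counts in replicate 1 and 90 in replicate 2. Fibroblast markers summed to 4585 TPM in replicate 2 and 5392 TPM in replicate 1, satellite cell markers to 120 and 117 TPM, and endothelial markers to 139 and 130 TPM. The part of these shifts in the ratios of the members was not tested.

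**Figure D3:**
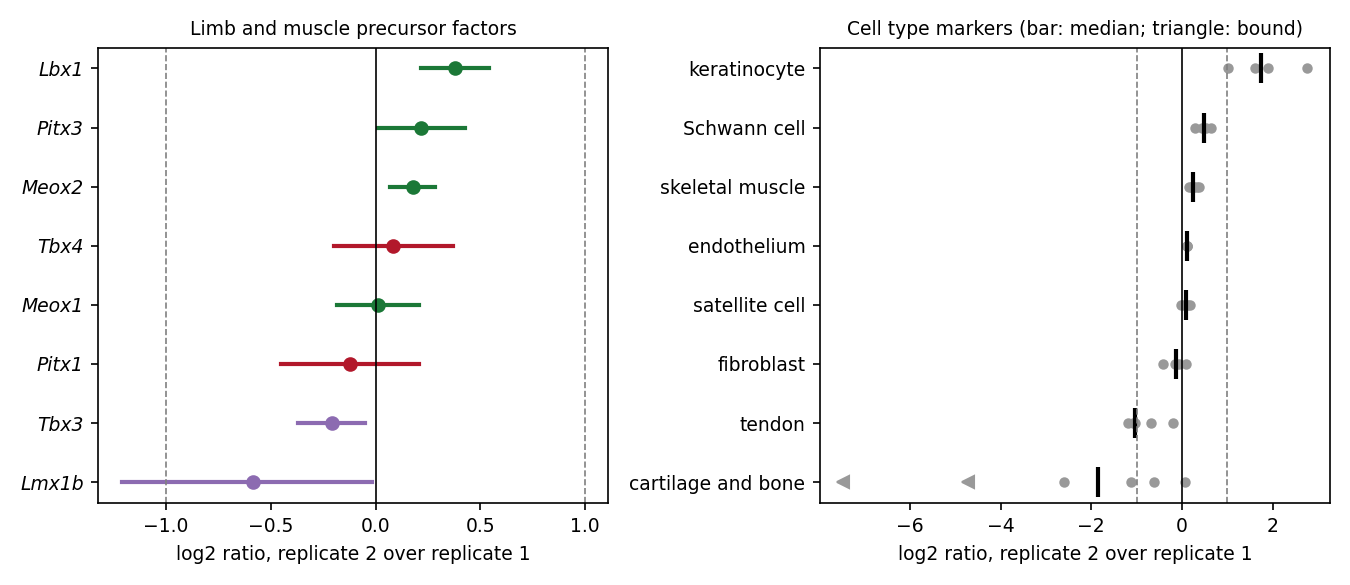
Log2 ratio of replicate 2 over replicate 1 for the 8 measured factors with 95% counting intervals (left) and for single markers of 8 cell types with list medians as bars (right); dashed lines mark 2-fold. All 8 factors lie within 2-fold, whereas tendon, cartilage and bone, and keratinocyte markers spread beyond it, and triangles show Ibsp and Col10a1 at the bound given by 3 counts.

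In the gene tables' own transcript quantification, shares shifted most between the libraries for Tbx4 and Tbx3. Lbx1, Meox1 and Meox2 have 1 annotated transcript each, so their shares could not vary. All Tbx5 counts, 2 in replicate 1 and 8 in replicate 2, went to Tbx5-201. Pitx1-201 held 100% of the gene TPM in replicate 1 and 94.5% in replicate 2, Pitx3-201 held 87.9% and 84.7%, and Lmx1b-201 held 59.5% and 66.9%. For Tbx4, Tbx4-203 held 69.8% in replicate 1 and 51.8% in replicate 2, Tbx4-201 held 14.6% and 39.3%, and Tbx4-202 held 15.6% and 8.94%. The other quantification put Tbx4-201 first instead, with 52.0% in replicate 1 and 56.3% in replicate 2, and Tbx4-202 at 0% and 1.88%. The leading Tbx4 transcript is therefore uncertain.

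These Tbx4 transcripts start at different places. Tbx4-203 starts at 85886422, Tbx4-201 at 85890063 and Tbx4-202 at 85896765 on chromosome 11. The promoter window that RefSeq gives for Tbx4 (GRCm38.p6, 250 bases before to 50 after the start) is that of Tbx4-202, which took the smallest or nearly the smallest share, and it is shown for that reason beside the window of Meox2, the most abundant member, whose only transcript starts at the RefSeq start. Capitals mark TTATAA, a form of the TATA box. The Tbx4 window is chr11:85896515-85896814 and the Meox2 window chr12:37108290-37108589, both on the plus strand.
Tbx4: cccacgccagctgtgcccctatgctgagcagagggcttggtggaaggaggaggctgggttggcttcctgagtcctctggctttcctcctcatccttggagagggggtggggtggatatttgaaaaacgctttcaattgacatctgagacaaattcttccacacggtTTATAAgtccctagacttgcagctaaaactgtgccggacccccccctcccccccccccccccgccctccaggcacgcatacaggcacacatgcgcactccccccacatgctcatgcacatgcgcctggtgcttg
Meox2: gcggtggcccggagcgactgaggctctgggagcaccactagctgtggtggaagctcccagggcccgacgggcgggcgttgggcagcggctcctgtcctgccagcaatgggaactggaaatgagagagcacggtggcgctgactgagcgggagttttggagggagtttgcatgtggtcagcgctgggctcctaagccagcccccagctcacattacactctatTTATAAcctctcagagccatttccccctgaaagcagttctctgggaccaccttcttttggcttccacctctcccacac

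TTATAA, a palindrome and so read on both strands, began at -28 from the start in the Meox2 window and at -84 in the Tbx4 window, and it occurred in 5.79% of the 32851 promoter windows of the same length. RefSeq windows were matched for 4 members, and those of Pitx3 and Lmx1b held none. The RefSeq start of Lmx1b lies 587 nt before that of Lmx1b-201 and 618 nt before that of Lmx1b-203. The Lmx1b window thus holds the start of neither transcript. The E-box CANNTG, to which myogenic factors such as Myod1 bind, occurred 6 times in the Tbx4 window, 2 times in that of Pitx3 and 1 time in those of Meox2 and Lmx1b, and 72.3% of all windows held at least 1. On either strand, TAATCC, a core bound by Pitx factors (7.06% of all windows), and TCACAC, part of a T-box site (14.5%), were not among the letters of any of the 4 windows.

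**Figure D4:**
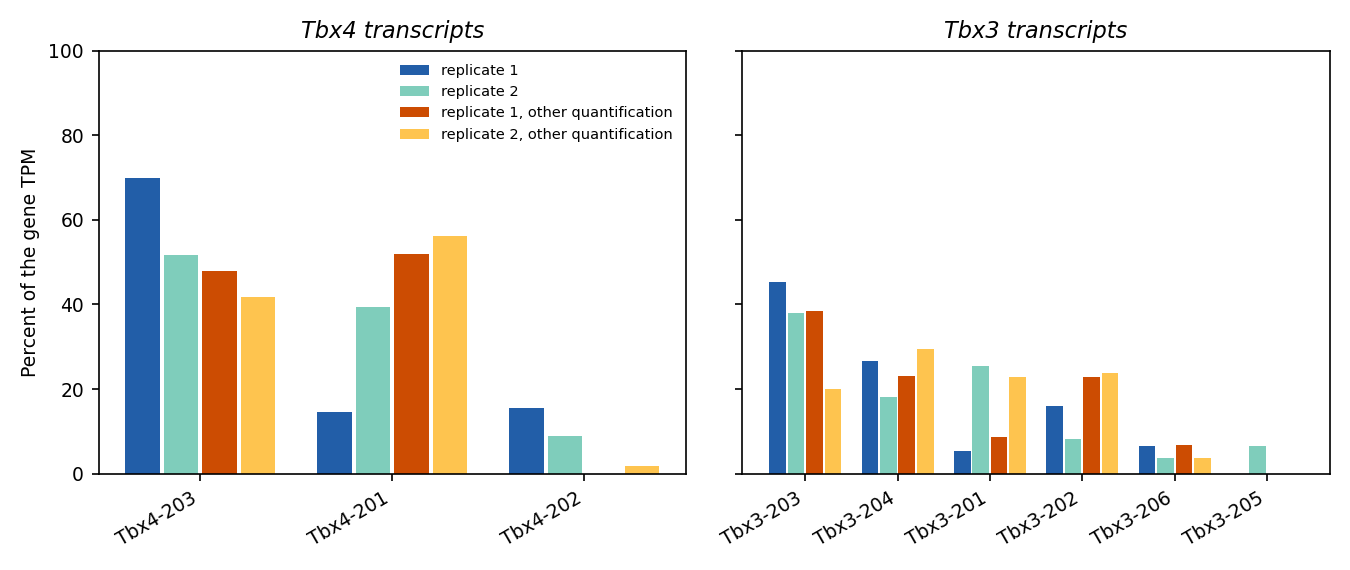
Percent of the gene TPM held by each transcript of Tbx4 (left) and Tbx3 (right) in replicates 1 and 2, in the gene tables' own transcript quantification and in the other quantification. Tbx4-203 leads in the first and Tbx4-201 in the second, and Tbx3-201 is higher in replicate 2 than in replicate 1 in both.

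Tbx3 was read as 6 transcripts, led by Tbx3-203 with 45.3% of the gene TPM in replicate 1 and 38.0% in replicate 2. Tbx3-201, which holds an added coding exon of 60 nt, took 5.45% in replicate 1 and 25.3% in replicate 2, or 48.7 and 214 expected counts, and 8.77% and 23.0% in the other quantification. There Tbx3-203 held 38.5% in replicate 1 and 20.1% in replicate 2, and Tbx3-204 led in replicate 2 with 29.4%. Both quantifications therefore placed Tbx3-201 higher in replicate 2, with no further library to test this. The exon lies at chr5:119675243-119675302 on the plus strand and is shown because it tells the forms apart.
Tbx3: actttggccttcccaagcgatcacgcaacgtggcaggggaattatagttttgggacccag
The retained-intron transcript Tbx3-204, of 725 nt, took 26.7% of the TPM in replicate 1 and 18.2% in replicate 2 but only 4.75% and 3.13% of the counts, since TPM weights a short transcript more.

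On the mm10 map several members lie near each other or near a relative. Tbx3 (ENSMUSG00000018604.18; chromosome 5, 119670669 to 119684724, plus strand) and Tbx5 (ENSMUSG00000018263.11; 119832668 to 119885219, plus strand) are neighbours 148 kb apart, at 6.14 ± 0.789 TPM and 0.0421 ± 0.0332 TPM. Their outer neighbours were Med13l (3407 and 3363 counts in replicates 1 and 2) and Rbm19 (487 and 573 counts), and Tbx3os1, which overlaps Tbx3 on the opposite strand, had 62 and 49 counts. Tbx5 was thus far below both of its neighbours.

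Tbx4 (ENSMUSG00000000094.12; chromosome 11, 85886422 to 85916097, plus strand) lies 44.5 kb from Tbx2, with Gm11444 (0 counts in both libraries) between them and Brip1 (240 and 306 counts) on the other side. Pitx1 (ENSMUSG00000021506.7; chromosome 13, 55825051 to 55836192, minus strand) has Catsper3 (3 counts and 1 count) on its left and H2afy (1310 and 1410 counts) 237 kb to its right. The antisense gene Gm47071, which overlaps Pitx1 and runs on beyond its right end to 56084849, had 12 and 9 counts, far fewer than Pitx1 itself, and Gm28760 on the same strand had 0.

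Lbx1 (ENSMUSG00000025216.9; chromosome 19, 45232684 to 45235812, minus strand) and Pitx3 (ENSMUSG00000025229.15; 46135685 to 46148326, minus strand) share a chromosome at 899.9 kb. Lbx1 lies between Tlx1 (4 and 6 counts) and Btrc (1196 and 1253 counts), and Pitx3 between Nolc1 (920 and 1056 counts) and Gbf1 (2879 and 3500 counts), with Elovl3 (2 counts and 1 count) overlapping it on the opposite strand. Meox2 (ENSMUSG00000036144.6; chromosome 12, 37108540 to 37179534, plus strand) lies between Ispd (233 and 282 counts) and Agmo (79 and 57 counts) and overlaps Gm48617 on the same strand (42 and 21 counts). Meox1 (ENSMUSG00000001493.9; chromosome 11, 101877510 to 101894374, minus strand) lies between Etv4 (221 and 240 counts) and Sost (4 counts in each library), with Gm11551 (0 counts and 1 count) antisense to it. Lmx1b (ENSMUSG00000038765.13; chromosome 2, 33560965 to 33640511, minus strand) lies between Zbtb43 (533 and 603 counts) and Mvb12b (1567 and 1793 counts) and overlaps Gm38011 (0 counts). Low members and abundant members both stood beside expressed genes.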

How the data were processed

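Per the labels' protocols, RNA was isolated with a kit for animal tissue, and ERCC spike-ins for stranded, ribosome-reduced libraries were used. The authors deposited expected counts and TPM per gene and transcript for each library, on mm10 with GENCODE M21 genes per the notes beside the files. They also deposited a transcript table with estimated counts and TPM, called the other quantification when summed per gene. Not given in the sources used here: the aligner, the quantifiers and the treatment of strand. CAST/EiJ reads were counted on the C57BL/6J reference.

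ERCC spike-ins held 0.695% and 0.741% of counts in replicates 1 and 2. TPM were recomputed from the expected counts and effective lengths (length minus 99 nt), and members differed from the deposited TPM by at most 0.005. Detection meant at least 1 TPM in each library (13328 Ensembl genes). Expected counts were rounded, and log2 ratios came from edgeR 4.0.16 (R 4.3.3; trimmed mean of M values, prior count 2, mean of at least 10 counts), with no p-value. The ratio step was tested on simulated data. Intervals are exact 95% Poisson or binomial ones and cover counting error only. Other settings tried were scaling by spike-ins, by library size or by size factors of DESeq2 1.42.0, other count, TPM and prior count settings, TPM without spike-ins, tRNA and mitochondrial genes, the other quantification, and leaving out a replicate. Coding sequences were aligned with Biopython 1.88. Python 3.11.15 with pandas 2.3.3 and scipy 1.17.1 did the rest.

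The members and lists (limb bud, Hoxc, muscle precursor, muscle connective tissue, cell type markers) were chosen with earlier results of these data known. Named were all members, family genes at 1 TPM or more, up to 4 leading genes and those under 1 TPM of each list, and neighbouring or overlapping genes. Osr1, Lmx1a, Lbx2, Fgf10 and single cell type markers were named after their values were seen. Likeness of pattern could not be measured over 2 libraries of 1 group. Some genes and a sequence within the rule are not reported here.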

Additional observations from a re-analysis of the deposited data

How the results depend on the processing

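Beyond 1 SD of the libraries, mean TPM moved for 9 of 9 members in the other quantification and for 4 when spike-ins, tRNA and mitochondrial genes were left out. Leaving out 1 of 2 libraries cannot move a mean beyond that SD, so those values are given as ranges only. Levels in the other quantification were higher, with a median over the members of 11.1 TPM against 6.14 TPM, and leaving out a replicate gave 5.59 to 6.70 TPM. Leaving out a replicate moved the ratio of Pitx1 to Tbx5 between 34.1 and 125.8, and that of Tbx4 to Tbx5 between 36.7 and 121.6, since the library left then sets the Tbx5 level from 2 or 8 counts. Adding 1 TPM to both genes reduced the ratios of 54.4 and 55.5 to 3.16 and 3.20, and both hindlimb genes exceeded Tbx5 under each alternative run. The 2-fold count of 660 genes became 2567 at a mean of at least 1 count and 87 at a mean of at least 100 counts. It was 500 with a prior count of 5, 773 with 0.5, 747 in the other quantification and 802 with spike-in scaling. At a mean of at least 1 count 1 of 9 members passed, beside 2567 of all 24791 genes measured there. That member, Tbx5, was at a log2 ratio of 1.21, from 2 and 8 counts. In the other quantification 0 of 9 members passed, beside 747 of 19110 genes, with Tbx5 at -0.01. Neither count sets the members apart from all genes. By expected counts, which are not per length, Tbx3 and Pitx3 changed places in the order. By the mean of both libraries, the leading transcript changed for 1 member, Tbx4, in the other quantification. At 10 counts in both libraries 8 members were detected, Lmx1b being added, and the share of all genes at that cut was not computed. No paired analysis of groups was possible because the series holds 1 group of 2 libraries. Genes measured in the same library were paired only in the ratios given per library. Depth limits Tbx5 most, with at most 8 counts per library in the gene tables, and then Lmx1b.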
